A study of Homo sapiens with 4 samples.

Results

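The DNA damage response and repair genes described here are 57 named genes of homologous recombination, the Fanconi anemia pathway, damage sensing and checkpoint signalling, end joining, mismatch repair, nucleotide excision repair and base excision or single-strand break repair. A gene was taken when its symbol in the deposited expression table equalled a listed name. This found 56 of the 57 names among the 22578 genes of the table, and MGMT, the methyltransferase that removes alkyl groups from guanine, is not analysed here. All 56 genes had enough counts to be tested.

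The cells were U87MG, a human glioblastoma line in long use, at passage 8. They were transduced on day 1 with retroviral particles that carried a hairpin to silence either KDM2B (shKDM2B) or, as control, firefly luciferase (shControl), were selected with puromycin at 1 µg/ml and were collected on day 9, so both groups share the transduction and the selection. Each group had 2 libraries of polyadenylated RNA, numbered 1 and 2, and values are given below in that order. The study calls the replicates biological, but neither it nor the labels say whether they are separate cultures or transductions, so the p-values rest on a library-to-library spread that may be technical, and the sources used here do not tell which KDM2B hairpin was in which shKDM2B library. In these bulk libraries, fewer cells that express a gene and less RNA of it per cell cannot be told apart.

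Libraries held 30470803 to 33770421 counts. KDM2B, the target, had 1257 and 1253 counts in the control libraries against 520 and 465 after knockdown, with a log2 fold change of -1.60 ± 0.06 (SE, n = 2 libraries per group; edgeR's quasi-likelihood test, Benjamini-Hochberg adjusted p = 3.38e-19). Glial lineage genes were measured in every library, with 87853 to 132879 counts of VIM, an intermediate filament of glia and of mesenchymal cells, and 68 to 172 of GFAP, the intermediate filament of astrocytes. Of other glial lineage genes, CD44 had 38115 to 55101 counts, NES 815 to 897, SOX9 763 to 815 and OLIG2 only 24 to 35. Defining markers of other cell types were low, with at most 10 counts of the leukocyte gene PTPRC, 15 of the neuronal gene RBFOX3 and 45 of the epithelial gene EPCAM in any library. MBP, an oligodendrocyte gene, had 43 to 68 counts, beside 77 and 68 of GFAP in the shControl libraries. The lysosomal gene CD68 was not low (7858 to 8402 counts), nor were the fibroblast and mural markers COL1A1 (7231 to 24169), PDGFRB (1028 to 1958), ACTA2 (401 to 437) and RGS5 (269 to 335). Some markers differed between the groups. VIM at a log2 fold change of -0.83 and CD44 at -0.74 were called lower in shKDM2B. COL1A1 at 1.47, GFAP at 0.98, EPCAM at 0.73 and PDGFRB at 0.62 were called higher. NES at -0.18, SOX9 at -0.23 and CD68 at -0.34 were lower at an adjusted p of at most 0.05, by less than 1.5-fold. The part of these shifts in the results below was not tested.

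Cells mend DNA by several routes. Double-strand breaks are either copied from the sister chromatid by homologous recombination, which works in S and G2 phase, or rejoined directly by end joining, which works throughout the cycle. The Fanconi anemia proteins unhook crosslinks between the strands, mismatch repair removes errors of replication, and the excision pathways cut out damaged nucleotides or bases. The kinases ATM and ATR signal the damage to the cell cycle. In glioblastoma these routes are known for their bearing on radiation and temozolomide. KDM2B is a histone H3 lysine 36 demethylase whose CXXC zinc finger binds unmethylated CpG, and the comparison asks how gene expression differs when its mRNA is reduced.

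Most of the repair genes had lower mRNA in shKDM2B cells, by small amounts. Of them, 7 genes, FANCG, FANCE, EXO1, BRCA1, MSH6, PRKDC and PARP2, passed both thresholds used here, an adjusted p of at most 0.05 and a change of at least 1.5-fold, and all of these were lower. That is 12.5% of the 56 genes, beside 6.79% of the 21783 genes tested that were called lower. None was called higher, against 13.3% of all genes tested, but at the adjusted p alone 7 of the 56 were higher. By the adjusted p alone, 39 of the 56 were lower (69.6%, against 29.5% of all genes) and 7 were higher (12.5%, against 28.4%), leaving 10 that passed in neither direction. The 56 genes had at least 85 counts in every library, while all genes tested include those with a mean count down to 10. A small shift passes less readily at few counts. The shares of all genes, here and below, were not matched for count. The log2 fold changes ran from -1.01 to 0.32 with a median of -0.29, where all genes tested had a median of 0.01, and 48 of the 56 genes lay below the latter. Library-scaled levels (CPM, after scaling by the trimmed mean of M-values, TMM) summed over the 56 genes came to 3147 and 3140 in the control libraries against 2516 and 2468 after knockdown. Abundant genes weigh most in this sum. The 6 end joining genes alone held 1291 and 1287 of it in the control libraries and 927 and 913 after knockdown.

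These directions are relative to the bulk of the transcriptome. When libraries were instead scaled so that ribosomal protein genes kept their level, which shifted the median of all genes by 0.39 on the log2 scale, the median of the 56 genes became 0.10, 2 were called lower and 4 higher, and the share of all genes called higher against lower moved from 2887 against 1478 to 6932 against 420. The distance between the median of the repair genes and that of all genes was -0.30 under both scalings, and 48 of the 56 lay below the median of all genes under both. A change of scaling moves the fold changes of all genes by nearly the same amount. This agreement therefore follows by construction and is no check of the result. Fold changes below are those after TMM scaling, and counts are raw. The shKDM2B libraries were deeper and had larger scaling factors, so a gene with like raw counts in both groups has a negative fold change.

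**Figure D1:**
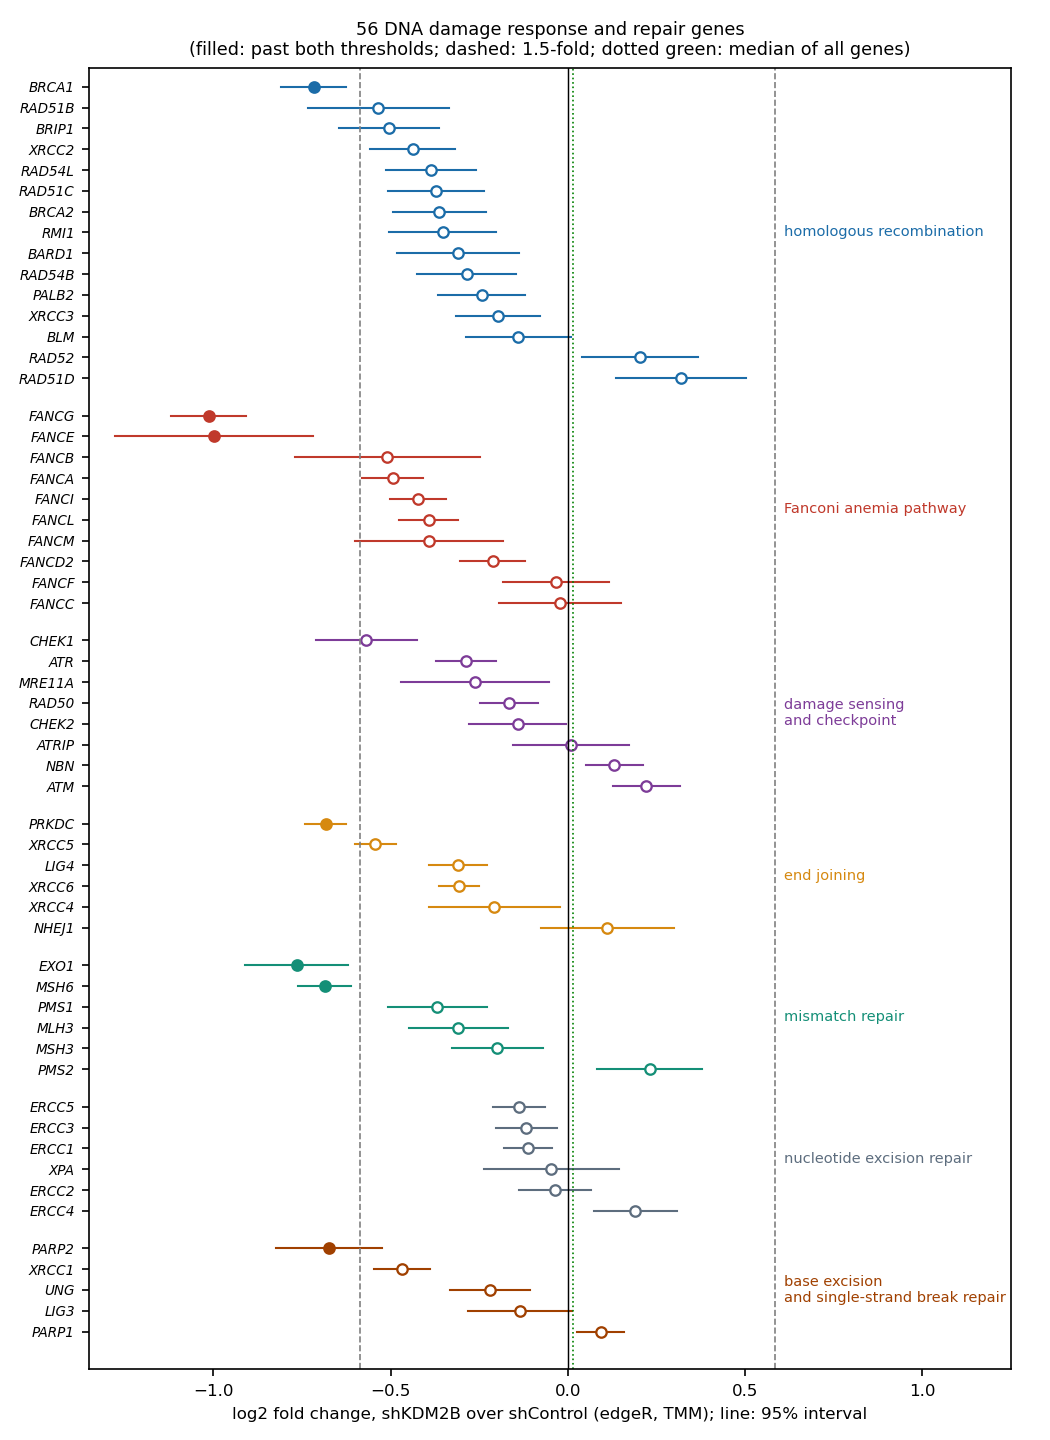
Log2 fold change (x axis, shKDM2B over shControl, TMM scaling) of each of the 56 genes (y axis), grouped by repair class, with 95% intervals from the edgeR fit as lines. Filled points are the 7 genes past both thresholds, the dashed lines stand at 1.5-fold and the dotted line at the median of all genes (0.01); values run from -1.01 (FANCG) to 0.32 (RAD51D).

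The Fanconi anemia pathway held the lowest fold changes. Its 10 genes had a median of -0.41, with 8 lower at the adjusted p (80.0%, against 29.5% of all genes) and none higher. Of these, 2 were called (20.0% of the class, against 6.79% of all genes). FANCG (ENSG00000221829; GRCh37 chromosome 9, 35073832 to 35080001, reverse strand), a subunit of the core complex that attaches ubiquitin to FANCD2 and FANCI, had 1156 and 1107 counts in shControl libraries and 676 and 655 in shKDM2B libraries. Both shKDM2B libraries lay well under both shControl libraries, and the log2 fold change was -1.01 ± 0.05 (edgeR adjusted p = 1.04e-15), the lowest of the 56. FANCE (ENSG00000112039; chromosome 6, 35420115 to 35434881, forward strand), the core subunit that binds FANCD2, had 153 and 150 counts in shControl libraries and 85 and 95 in shKDM2B libraries, the fewest of any of these genes. Its groups did not overlap either, with a log2 fold change of -0.998 ± 0.14 (edgeR adjusted p = 3.62e-07).

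The upstream sequences of these genes are shown because KDM2B binds CpG and FANCG and FANCE are the genes that fell most. RefSeq start sites on GRCh38.p14 were found for 51 of the 56 genes, giving 76 windows from 250 bases before to 50 after a start. These windows held a median of 26 CpG (2 to 41), beside 14 (0 to 77) in all 35116 windows, which include noncoding genes. The lines below give the 250 bases before the start of each gene, 5′ to 3′ on its own strand, with every CpG in capitals.
FANCG, chr9:35079943-35080192, reverse strand: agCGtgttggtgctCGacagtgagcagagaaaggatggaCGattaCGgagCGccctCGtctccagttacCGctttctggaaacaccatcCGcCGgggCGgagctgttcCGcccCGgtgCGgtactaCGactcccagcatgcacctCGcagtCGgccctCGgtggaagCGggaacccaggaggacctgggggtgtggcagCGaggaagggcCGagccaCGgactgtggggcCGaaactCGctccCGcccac
FANCE, chr6:35452088-35452337, forward strand: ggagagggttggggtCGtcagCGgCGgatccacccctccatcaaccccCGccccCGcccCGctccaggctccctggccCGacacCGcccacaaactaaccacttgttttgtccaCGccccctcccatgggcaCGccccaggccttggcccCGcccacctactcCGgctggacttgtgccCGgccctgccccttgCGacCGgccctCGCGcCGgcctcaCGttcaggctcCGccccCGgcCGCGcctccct
The first holds 24 CpG and the second 23, and the median of 26 was counted over windows 300 bases long. No measure of KDM2B binding or of DNA methylation is part of these data, and a link between CpG and the fold changes was not tested.

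The other Fanconi genes moved less. FANCA, a further core subunit, had 1466 and 1460 counts in shControl libraries and 1244 and 1223 in shKDM2B libraries (log2 fold change -0.49 ± 0.04, edgeR adjusted p = 4.93e-11). FANCI, which forms the clamp with FANCD2 on damaged DNA, had the most counts of the class, 2728 and 2675 against 2463 and 2325 (-0.42 ± 0.04, edgeR adjusted p = 2.18e-10). Both genes were separated between the groups but below 1.5-fold. FANCL, the ubiquitin ligase of the complex, was also lower at -0.39, as were FANCB at -0.51, the DNA translocase FANCM at -0.39 and FANCD2 at -0.21. FANCD2 has near-identical pseudogene copies, so its count is uncertain. FANCC had 374 and 342 counts in shControl libraries and 423 and 414 in shKDM2B libraries, which after scaling was a log2 fold change of -0.02 ± 0.08 (edgeR adjusted p = 0.841), and FANCF was at -0.03 (adjusted p = 0.731). The mRNAs of the core complex thus differed unevenly between the groups, with FANCG and FANCE called lower and FANCC and FANCF passing in neither direction.

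Homologous recombination was lower in nearly all of its genes. Of 15, 12 were lower (80.0%, against 29.5% of all genes) and 2 higher (13.3%, against 28.4%) at the adjusted p. The class median was -0.35, but 1 gene, BRCA1, reached 1.5-fold, and this 6.67% is near the 6.79% of all genes called lower. BRCA1 (ENSG00000012048; chromosome 17, 41196312 to 41322262, reverse strand), which promotes resection of broken ends and brings in PALB2 and BRCA2, had 1793 and 1864 counts in shControl libraries and 1380 and 1262 in shKDM2B libraries. Groups were apart, at -0.72 ± 0.04 on the log2 scale (edgeR adjusted p = 8.84e-14), and this was also the gene of the class with the most counts. Its obligate partner BARD1 was at -0.31, and PALB2 and BRCA2, which load the recombinase on single-stranded DNA, were at -0.24 and -0.36. XRCC2, a member of a complex of recombinase paralogs, had 822 and 768 counts against 690 and 703 (-0.44 ± 0.06, edgeR adjusted p = 2.92e-07), the second smallest adjusted p of the class. BRIP1, the helicase that binds BRCA1, was at -0.51.

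The recombinase paralogs did not move together. RAD51B at -0.53, RAD51C at -0.37 and XRCC2 were lower, and XRCC3 was lower by less, at -0.20. RAD51D, which joins RAD51B, RAD51C and XRCC2 in 1 complex, had 288 and 306 counts in shControl libraries and 458 and 422 in shKDM2B libraries, a log2 fold change of 0.32 ± 0.09 (edgeR adjusted p = 0.00312). It was the highest of the 56 genes, and both shKDM2B libraries were above both shControl libraries. RAD52, which anneals single strands, was at 0.20 (381 and 347 against 495 and 500 counts; edgeR adjusted p = 0.0303). The motor proteins RAD54L and RAD54B were at -0.39 and -0.29, and RMI1, a partner of the BLM helicase in dissolving joint molecules, was at -0.35. BLM itself passed in neither direction, with 502 and 485 counts against 544 and 520 (-0.14 ± 0.07, edgeR adjusted p = 0.0997). Of these genes, 76.7% of the exonic bases of XRCC3 and 66.0% of those of RAD54B are shared with another gene, so their counts are uncertain.

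End joining held the most abundant mRNAs. PRKDC (ENSG00000253729; chromosome 8, 48685672 to 48872738, reverse strand), the catalytic subunit of the DNA-dependent protein kinase, had 13033 and 12442 counts in shControl libraries and 9620 and 9220 in shKDM2B libraries. It had the most counts of the 56 in the shControl libraries, while XRCC6 had the most in the shKDM2B libraries, and its log2 fold change of -0.68 ± 0.03 had the smallest adjusted p (8.14e-18, edgeR). XRCC5 and XRCC6, which encode the Ku subunits that hold the broken end and recruit the kinase, were also lower. XRCC5 (Ku80) had 11152 and 10931 counts against 9117 and 8878 (-0.54 ± 0.03, edgeR adjusted p = 1.04e-15), just short of 1.5-fold. XRCC6 (Ku70) had 11900 and 11577 counts against 11357 and 11174 (-0.31 ± 0.03, edgeR adjusted p = 1.06e-10). The mRNAs of the 3 parts of this kinase were therefore all lower, to different degrees. LIG4, the ligase of the pathway, was at -0.31. Its scaffold XRCC4 was at -0.21 (adjusted p = 0.0511) and NHEJ1, which bridges the ends beside them, at 0.11 (287 and 279 against 368 and 358 counts; adjusted p = 0.31), neither past the threshold. Per kilobase of exon, XRCC6 (122 CPM per kb in shControl) and XRCC5 (68.4) had the highest levels of the 56 genes and FANCM (0.470) and FANCB (0.430) the lowest.

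In mismatch repair, EXO1 and MSH6 had the lowest fold changes. Of 6 genes, 5 were lower (83.3%, against 29.5% of all genes) and 1 higher (16.7%, against 28.4%) at the adjusted p. EXO1 and MSH6 were the 2 called lower (33.3%, against 6.79% of all genes). EXO1 (ENSG00000174371; chromosome 1, 242011269 to 242058450, forward strand), the nuclease that digests the strand with the error and also resects breaks, had 661 and 622 counts in shControl libraries and 464 and 432 in shKDM2B libraries (-0.77 ± 0.07, edgeR adjusted p = 3.03e-10). MSH6 (ENSG00000116062; chromosome 2, 47922669 to 48037202, forward strand), which recognises single mismatches and has the most counts of the class, had 3563 and 3417 against 2613 and 2536 (-0.69 ± 0.04, edgeR adjusted p = 1.68e-15). In both, the shKDM2B libraries lay apart from and below the shControl libraries. Of the exonic bases of MSH6, 24.2% are shared with other genes, mostly FBXO11 on the opposite strand. MSH3, which recognises larger loops, was lower by less (677 and 647 against 696 and 673 counts; -0.20, edgeR adjusted p = 0.00797). MLH3 was at -0.31 and PMS1, the partner whose role in repair is minor, at -0.37. PMS2, the endonuclease of the pathway, was higher, with 470 and 421 against 637 and 604 counts (0.23 ± 0.07, edgeR adjusted p = 0.00797), but it has near-identical pseudogene copies that can share its reads.

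Damage sensing and checkpoint genes held no called gene. Of 8, 4 were lower (50.0%, against 29.5% of all genes) and 2 higher (25.0%, against 28.4%) at the adjusted p, with a median of -0.15. CHEK1, the kinase that ATR activates to slow the cycle, had 622 and 623 counts in shControl libraries and 510 and 487 in shKDM2B libraries (-0.57 ± 0.07, edgeR adjusted p = 5.37e-08), just under 1.5-fold. ATR, which senses single-stranded DNA, had 1812 and 1798 against 1820 and 1692 (-0.29 ± 0.04, edgeR adjusted p = 7.72e-07). ATM, which senses double-strand breaks, went the other way, with 1262 and 1112 against 1689 and 1596 (0.22 ± 0.05, edgeR adjusted p = 0.000152). The kinases of single-stranded DNA and of breaks thus had opposite signs after TMM scaling, though both were positive when centred on ribosomal protein genes (ATR 0.10, ATM 0.61). CHEK2, the target of ATM, passed in neither direction (-0.14, edgeR adjusted p = 0.0735) and also has pseudogene copies. ATRIP, which carries ATR to DNA, was the closest to no change of all 56 (394 and 428 against 504 and 478 counts; 0.01 ± 0.08, edgeR adjusted p = 0.937). Of the break sensor complex, NBN was higher at 0.13 (2127 and 1976 against 2695 and 2638 counts) and RAD50 at -0.17 and MRE11A at -0.26 were lower. RAD50 had up to 2429 counts, of which an unknown part may belong to genes that share 76.9% of its exonic bases.

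Nucleotide excision repair, which cuts out bulky lesions, had the class median closest to 0. No gene was called, 3 of 6 were lower (50.0%) and 1 was higher (16.7%) at the adjusted p, at a median of -0.08. Among all genes tested, 29.5% were lower and 28.4% higher. ERCC5, the 3′ incision nuclease, had 2936 and 2833 against 3121 and 3109 counts (-0.14 ± 0.04, edgeR adjusted p = 0.00174). ERCC1, which pairs with ERCC4 to make the 5′ incision and has the most counts of the class, had 4117 and 3959 against 4488 and 4382 (-0.11 ± 0.03, edgeR adjusted p = 0.00446). ERCC4 was higher, with 726 and 655 against 946 and 925 (0.19 ± 0.06, edgeR adjusted p = 0.00519). After TMM scaling the partners in this nuclease therefore had opposite signs, each by a small amount. ERCC1 did not pass with upper quartile scaling (edgeR adjusted p = 0.202), nor ERCC4 with DESeq2 (adjusted p = 0.0933). Centring on ribosomal protein genes made both positive (ERCC1 0.28, ERCC4 0.58). The helicase ERCC3 was at -0.12, and ERCC2, the other helicase, at -0.04 and the damage verifier XPA at -0.05 (296 and 285 against 345 and 323 counts; adjusted p = 0.696) passed in neither direction. Shared exonic bases make up 33.0% of ERCC5 and 28.6% of ERCC1.

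Base excision and single-strand break repair had 3 of 5 genes lower (60.0%) and 1 higher (20.0%) at the adjusted p, with a median of -0.22. The shares of all genes were 29.5% and 28.4%. PARP2 (ENSG00000129484; chromosome 14, 20811774 to 20826063, forward strand), which marks nicks with poly(ADP-ribose), had 617 and 671 counts in shControl libraries and 477 and 482 in shKDM2B libraries, a log2 fold change of -0.67 ± 0.07 (edgeR adjusted p = 5.92e-09). The groups did not overlap, but without shControl library 2 the change was -0.58, under the fold threshold. PARP1, the more abundant enzyme of the same reaction, had 4571 and 4485 against 5875 and 5596 counts and was slightly higher (0.09 ± 0.03, edgeR adjusted p = 0.0148). XRCC1, the scaffold that the polymers recruit, was lower, with 2340 and 2308 against 2028 and 1961 (-0.47 ± 0.04, edgeR adjusted p = 3.23e-11). UNG, which removes uracil, was at -0.22, and LIG3, the ligase bound to XRCC1, passed in neither direction (580 and 660 against 681 and 661 counts; -0.13, adjusted p = 0.113).

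**Figure D2:**
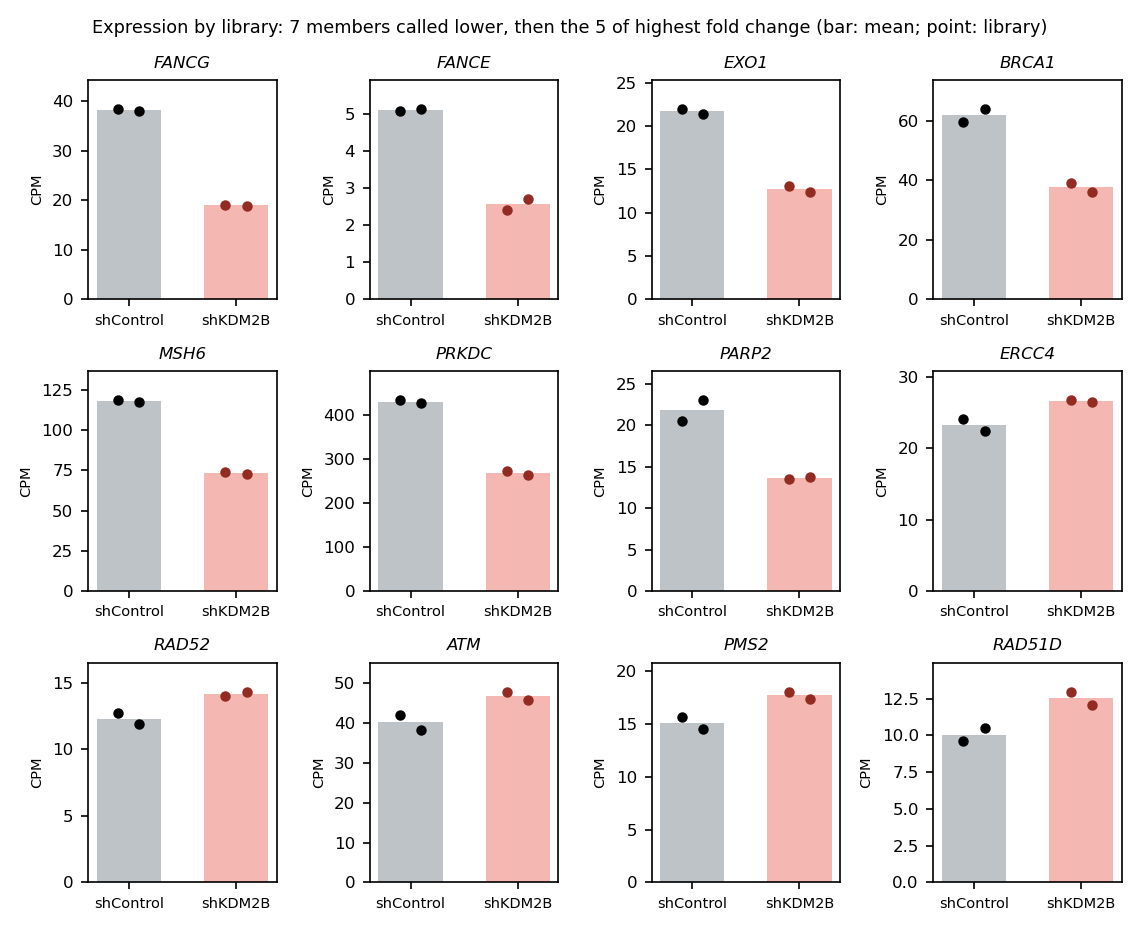
CPM (y axis, TMM scaling) in each library (points) and its mean per group (bars) for the 7 genes called lower and the 5 of highest fold change. In the 7 called genes both shKDM2B points lie under both shControl points, from FANCG at 1156 and 1107 against 676 and 655 raw counts to PARP2 at 617 and 671 against 477 and 482; RAD51D, PMS2, ATM, RAD52 and ERCC4 lie higher in shKDM2B.

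The number of higher genes changed with the tool and the libraries used. With DESeq2 in place of edgeR, 35 of the 56 were lower at the adjusted p and 2 higher, ATM (adjusted p = 0.0113) and RAD51D (0.0467). Leaving out shControl library 2 left 4 higher genes and leaving out shKDM2B library 1 left 3. CPM of the groups did not overlap in 53 of the 56, with 45 lower (80.4%) and 8 higher (14.3%), beside 38.2% lower and 39.4% higher among all genes tested.

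Sequence motifs were searched in the same windows because many repair genes are known targets of the E2F factors of S phase. The E2F letters TTTCCCGC, TTTGGCGC, TTTCGCGC and TTTGCCGC, on both strands, were found for 11 of 51 genes (21.6%), beside 3.99% of all genes, and in 15.8% of member windows against 3.31% of all windows of this length. The CRE letters TGACGTCA were in 11.8% of member windows and 1.85% of all windows, in EXO1, LIG4, PARP2, PMS2, RAD51C and XRCC2. Of the 11 genes with the E2F letters, 9 were lower at the adjusted p, EXO1 and MSH6 among them, PMS2 was higher and FANCC passed in neither direction. Of all 51 genes with a window, 35 were lower and 6 higher. CCAAT was in 43.4% of member windows and 34.6% of all, and the letters TTTGAA or TTCGAA (the cell cycle homology region, CHR) in 9.21% and 16.4%. Every E2F and CRE string holds a CpG, and the member windows had a median of 26 CpG, beside 14 in all windows. The shares were not matched for base composition, and all windows include noncoding genes. A match describes these letters and no binding. Stretches of 30 bases with the E2F letters in capitals, or the whole upstream sequence of PARP2 with the CRE letters in capitals, are given for the genes below, since these matches lie in genes that were lower.
EXO1, chr1:241848197-241848226, forward strand: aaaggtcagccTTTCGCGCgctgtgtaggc
MSH6, chr2:47783137-47783166, forward strand: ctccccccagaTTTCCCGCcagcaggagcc
FANCA, chr16:89816801-89816830, reverse strand: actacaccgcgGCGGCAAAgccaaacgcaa
PARP2, chr14:20343385-20343634, forward strand: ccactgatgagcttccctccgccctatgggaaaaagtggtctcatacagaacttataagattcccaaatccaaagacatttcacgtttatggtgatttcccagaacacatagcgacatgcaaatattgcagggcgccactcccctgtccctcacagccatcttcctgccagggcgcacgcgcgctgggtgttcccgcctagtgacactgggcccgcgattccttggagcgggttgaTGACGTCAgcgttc
Counted from a start site as base 1, the match in EXO1 begins at base 5 of 1 of its 2 RefSeq starts and that in MSH6 at base 4 of 1 of its 4, and that in FANCA lies 172 to 165 bases before its start.

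Ratios between functional partners within a library do not depend on scaling. They are given as a description for 15 pairs that were chosen with the results known, so a lack of overlap between the groups says nothing about them. Each had an exact two-sided permutation p of 0.333, the smallest that 2 against 2 libraries allow, before and after Benjamini-Hochberg adjustment over the pairs. PARP2 per count of PARP1 was 0.135 and 0.150 in shControl and 0.0812 and 0.0861 in shKDM2B, a log2 difference of -0.76 ± 0.08 (SE from both fits). MSH6 per count of MSH3 was 5.26 and 5.28 against 3.75 and 3.77 (-0.49 ± 0.07). The mRNA of the partner that recognises single mismatches was thus lower relative to that of the one that recognises loops. ATR per count of ATM was 1.44 and 1.62 against 1.08 and 1.06 (-0.51 ± 0.06), and BRCA1 per count of BARD1 was 3.82 and 4.70 against 3.21 and 3.16 (-0.41 ± 0.10). XRCC5 per count of XRCC6, whose proteins pair 1 to 1, was 0.937 and 0.944 against 0.803 and 0.795 (-0.24 ± 0.04). In the other direction, RAD51D per count of RAD51C was 0.444 and 0.494 against 0.786 and 0.726 (0.69 ± 0.11). The remaining log2 differences were FANCG to FANCA -0.52, CHEK1 to CHEK2 -0.43, PRKDC to XRCC6 -0.38, ATR to ATRIP -0.30, FANCI to FANCD2 -0.21, ERCC4 to ERCC1 0.30, NBN to MRE11A 0.40, PMS2 to PMS1 0.60 and RAD51D to RAD51B 0.86.

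**Figure D3:**
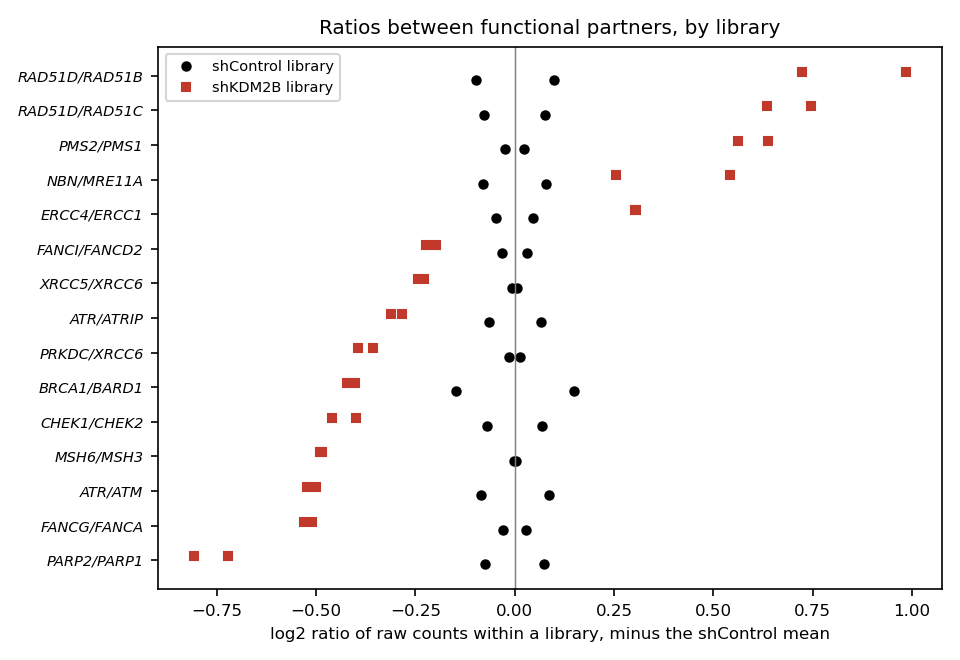
Log2 ratio of raw counts within a library for each of the 15 pairs (y axis), minus the shControl mean of that pair (x axis), with circles for shControl and squares for shKDM2B libraries. The pairs were chosen with the results known, and the differences run from -0.76 (PARP2 to PARP1) to 0.86 (RAD51D to RAD51B).

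Most repair genes outside the 56 were lower too. Of 80 such genes in 5 lists, 52 were lower and 2 higher at the adjusted p, with 9 called lower, 1 called higher and a median log2 fold change of -0.24. Of 10 other crosslink repair genes (median -0.49), 8 were lower and none higher at the adjusted p, with the ubiquitin ligase RAD18 at -0.70 and UBE2T, the enzyme that supplies ubiquitin to FANCL, at -0.69 called, and USP1, which removes that ubiquitin, at -0.50 and the translesion polymerase REV3L at -0.51. Of 20 other recombination and resection genes (median -0.29), 15 were lower and none higher, and 4 were called, RPA3, a subunit of the protein that coats single strands, at -0.71, RMI2 at -0.73, PSMC3IP at -0.59 and MND1 at -0.65, with RPA2 at -0.44. Of 15 other signalling genes (median -0.21), 10 were lower and none higher, and CLSPN, which links ATR to CHEK1, was called at -0.76, beside TIMELESS at -0.53, RIF1 at -0.50 and RNF168 at -0.33. Of 7 other end joining genes (median -0.23), 4 were lower, none higher and none called, among them POLM at -0.40, DCLRE1C at -0.23 and APTX at -0.18.

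The 28 other excision repair genes (median -0.18) held the exception. The thymine DNA glycosylase TDG, which also acts in removal of methylated cytosine, had 562 and 473 counts in shControl libraries and 1161 and 1130 in shKDM2B libraries and was called higher (0.90, edgeR adjusted p = 5.33e-13). Of the rest, 15 were lower at the adjusted p, with the glycosylase NEIL3 called at -0.92, the ligase LIG1 called at -0.63 and the flap nuclease FEN1 at -0.40, and NEIL2 was higher at 0.35. Glycosylases of this list thus changed in both directions. The counts here are a description, beside 6.79% of all genes called lower and 29.5% lower at the adjusted p.

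Genes of the cell cycle moved with the repair genes. All 22 S phase replication genes had a negative fold change (median -0.64), and 21 were lower at the adjusted p, 13 of them called, with PCNA at -0.98, the replication licensing factor CDC6 at -0.89 and the helicase subunits MCM5 at -0.83 and MCM6 at -0.82. Their CPM summed to 1815 and 1827 in shControl and 1205 and 1173 in shKDM2B. All 16 mitosis genes were lower at the adjusted p, 3 of them called (median -0.47), with CENPF at -0.67, MKI67 at -0.65, TPX2 at -0.55 and CDK1 at -0.69, and their CPM summed to 2258 and 2239 against 1641 and 1589. The median fall of both lists was more than that of the 56 repair genes, and the part of this shift in the repair result was not tested. Ribosomal protein genes also fell, with 55 of 56 lower at the adjusted p and a median of -0.38. Among all genes tested, 29.5% were lower at the adjusted p and 6.79% were called lower. These lists too were chosen with earlier results known.

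**Figure D4:**
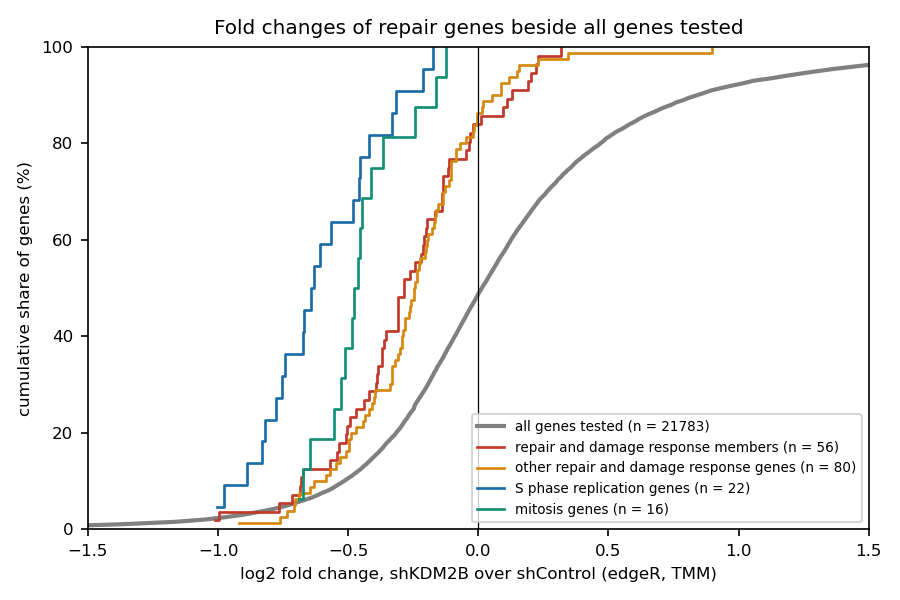
Cumulative share of genes (y axis, %) against log2 fold change (x axis, shKDM2B over shControl, TMM scaling) for all 21783 genes tested, the 56 repair and damage response genes, the 80 other repair genes, the 22 S phase and the 16 mitosis genes. The median of the repair genes (-0.29) lies between that of all genes (0.01) and those of the mitosis (-0.47) and S phase genes (-0.64), while the curves themselves cross in places.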

How the data were processed

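RNA-seq was analysed in 4 libraries of U87MG cells, grouped by their labels. Reads were converted by the authors with CASAVA 1.8.2, mapped on hg19 with TopHat2 2.0.11 over Bowtie and counted on Ensembl annotation, as the study's methods and the submitters' processing notes say. Neither the Ensembl release nor the strand setting is given in the sources used here. The deposited table holds raw counts per gene with 3 lanes combined, and these counts were used. Reads of genes that overlap on either strand may therefore not be told apart. The authors' 4 normalized columns and their columns of group means, fold changes and DESeq p-values were not used.

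Genes whose mean count reached 10 in either group (21783) were tested by the quasi-likelihood test of edgeR 4.0.16 (R 4.3.3) after TMM scaling, with Benjamini-Hochberg adjustment over all of them; 795 genes under that minimum were left out. A gene was called at an adjusted p of at most 0.05 and at least 1.5-fold. The biological coefficient of variation common to all genes was 2.62%, moderated with 24.3 prior beside 2 residual degrees of freedom. Alternatives changed the scaling, the tool (DESeq2 1.42.0), the filter, the fold, a replicate block and the library left out. The test was tried on simulated data first. Genes and exonic bases were placed with GENCODE 44 on GRCh37, and promoters came from RefSeq, GRCh38.p14. Tables and figures were made with Python 3.11.15, pandas 2.3.3, scipy 1.17.1 and matplotlib 3.10.9. The members, lists and pairs were chosen with earlier results of these data known. All members are named; counts are printed for called genes and, per class, for the 2 smallest and the largest adjusted p and the largest count, and list genes are up to 4 of smallest adjusted p, with others that were called or higher added after their values were seen. Some genes that this rule would name are not reported here.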

Additional observations from a re-analysis of the deposited data

How the results depend on the processing

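The 7 called genes kept their calls with DESeq2's size factors, upper quartile scaling, no filter on low counts, DESeq2 and the replicate block. Whether the replicate numbers pair the libraries is not known. Deviations from the group mean correlated at 0.05 between libraries of the same number. With 2 libraries per group both pairs give this same value by construction, so it cannot show whether a batch was shared. With the replicate block, 7 of the 56 genes were called lower, and 40 were lower and 7 higher at the adjusted p. Of all genes, 2927 were called higher and 1482 lower. DESeq2 gave 2 higher at the adjusted p. At a 2-fold threshold 1574 of all genes were called higher, 458 lower and 1 of the 56 lower. Leaving out 1 library gave 7 to 9 called lower, 37 to 39 lower and 3 to 7 higher at the adjusted p. PARP2 lost its call without shControl library 2 (-0.58), while gains were CHEK1 (-0.59) and FANCB (-0.61) without shControl library 1, BRIP1 (-0.59) without shControl library 2, CHEK1 (-0.60) without shKDM2B library 1 and RAD51B (-0.62) without shKDM2B library 2. FANCC ranged from -0.058 without shControl library 2 to 0.025 without shControl library 1, and ATRIP from -0.068 without shControl library 1 to 0.097 without shControl library 2, with -0.026 without shKDM2B library 1. An analysis added after seeing the data, on the 42 genes that share under 10% of exonic bases, had 6 called lower, and 29 lower and 6 higher at the adjusted p. Besides the genes named above for shared bases, it left out LIG3 (30.5% shared), XRCC1 (28.2%), ATRIP (26.7%), NHEJ1 (25.9%), RAD54L (19.9%), FANCA (19.6%), ERCC4 (14.1%) and CHEK1 (13.4%). The counts of these genes are uncertain too. Counts of 85 or more per library in the 56 genes gave standard errors of 0.03 to 0.14, the larger ones in genes of few counts.

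Centring on ribosomal protein genes moved most values by its own construction. All genes called higher became 6932 and lower 420; of the 56, 4 were called higher (ATM 0.61, PMS2 0.62, RAD52 0.59, RAD51D 0.71) and 2 lower (FANCG -0.62, FANCE -0.61), and 10 were lower and 27 higher at the adjusted p. BRCA1 (-0.33), EXO1 (-0.38), MSH6 (-0.30), PRKDC (-0.29) and PARP2 (-0.28) lost their calls. The log2 fold change turned positive for 29 members: BRCA2 0.028, BARD1 0.080, PALB2 0.15, RAD51C 0.018, XRCC3 0.19, RAD54B 0.10, RAD54L 0.0039, BLM 0.25, RMI1 0.037, FANCC 0.37, FANCD2 0.18, FANCF 0.36, ATR 0.10, CHEK2 0.25, MRE11A 0.13, RAD50 0.22, XRCC4 0.18, XRCC6 0.083, LIG4 0.081, MSH3 0.19, MLH3 0.081, PMS1 0.021, ERCC1 0.28, ERCC2 0.35, ERCC3 0.27, ERCC5 0.25, XPA 0.34, LIG3 0.26 and UNG 0.17, and for RNF168 0.057, DCLRE1C 0.16 and APTX 0.21 outside them. Upper quartile scaling turned FANCC to 0.041, FANCF to 0.031, ERCC2 to 0.027 and XPA to 0.017.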
